A study of Mus musculus with 10 samples.

Results

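Interferon stimulated genes and the sensors of foreign nucleic acid that lie upstream of them were followed in cells sorted from the adult mouse hippocampus. The set was chosen by name and not by measured values. It holds 33 genes: transcription factors of the pathway, sensors of viral RNA and DNA, enzymes of ubiquitin-like and ADP-ribose modification, antiviral effectors, and the chemokine Cxcl10. Of these, 32 were found among the 19965 named genes of the table, and Isg15 was not analysed here.

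Interferons are secreted proteins that bind paired receptor chains and act through Janus kinases. Type I interferons act on most cells through a complex that holds Stat2 and Irf9 and binds a DNA element called the interferon-stimulated response element (ISRE) and switch on a broad antiviral programme. Interferon gamma acts mainly through a different element called GAS. Cytosolic sensors such as Ddx58 (RIG-I) and Ifih1 (MDA5) recognise viral RNA and set off the production of interferon, and most sensors are themselves raised by interferon. In the brain, microglia and endothelial cells respond strongly to interferon, astrocytes and neurons respond as well, and interferon-stimulated transcripts have been described as rising in the aged brain.

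RNA was measured on 10 Affymetrix Mouse Gene 1.0 ST arrays, 1 per sample. Every mouse was untreated and carried the Sox1-GFP reporter on 1 allele, so that cells using Sox1, a gene of neural stem cells, fluoresce green. Each hippocampus was dissociated with papain and sorted into cells with high GFP (called GFP-positive below) and cells without GFP (GFP-negative). There were 4 GFP-positive samples from old mice of 1 year 9 months, 3 GFP-positive samples from young mice of 7, 5 and 4 months (replicates 1, 2 and 3), and 3 GFP-negative samples from young mice of 7, 7 and 4 months. No GFP-negative sample from old mice was analysed here. The titles call the samples biological replicates. The young fractions numbered 2 came from different mice, of 5 months (GFP-positive) and 7 months (GFP-negative). For those numbered 1 and 3 the titles do not say whether both fractions came from the same mouse. The reporter heterozygosity is shared by all groups, so no sample shows these genes without it. The GFP-negative fraction is every hippocampal cell that lacks GFP, not 1 cell type.

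The labels name the GFP-positive cells as neural stem and progenitor cells of the subgranular zone. Among 8 marker genes of such cells, 4 were higher in young GFP-positive than in young GFP-negative samples by limma (adjusted p under 0.05). Sox2 was among them, while Sox1 itself differed by 0.28 ± 0.11 (log2 difference ± SE, adjusted p = 0.123 by limma) and Nes by -0.36 ± 0.22 (adjusted p = 0.287 by limma). Of 11 astrocyte markers, 10 were higher in GFP-positive samples, whose mean over the list was 10.28 to 10.74 in young mice, against 7.36 to 8.17 in GFP-negative samples. All 13 microglia markers, all 11 endothelial markers and all 7 markers of mature oligodendrocytes were lower in the GFP-positive samples. Within a group the arrays correlated across genes with r of 0.967 to 0.986. In old replicate 3 Xist was high and Y-linked genes such as Ddx3y were low, the opposite of the other 9 samples. In replicate 1 of both young groups the mean of 7 choroid plexus markers was 8.17, against 5.48 to 6.13 in the other 8 samples. One of these markers, Ttr, was also raised in replicate 2, at 9.53 in GFP-positive and 9.26 in GFP-negative cells. In the old samples and in replicate 3 of both young groups Ttr was 5.88 to 7.83. Calls that old replicate 3 or replicate 1 of both young groups decide are given below also without them.

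Values are log2 RMA expression values, in which 1 unit is a doubling. A value of 1 gene cannot be set against that of another as an amount of RNA, because probes differ in brightness. Averaged over all 10 samples, the interferon genes ran from 4.24 for Mx1 (the 8.65th percentile of all genes) to 9.12 for Ifi27 (the 93.7th percentile). They were divided at the median of all genes, 6.60, into 13 bright and 19 dim genes. Trim25, at 6.65, was the bright gene nearest to that line, and Xaf1, at 6.43, the dim gene nearest to it. The table holds no detection call, so a dim value cannot be told from no expression.

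The interferon response is read at the promoter, so the ISRE was looked for in a window from 250 bases before to 50 bases after each RefSeq start site (GRCm38.p6). The letters searched were GAAANNGAAA on either strand, where copies that overlap were counted separately. Of 25 genes with a promoter in the table, 13 held at least 1 copy, or 52%, against 3.99% of 27025 genes. The GAS letters TTCNNNGAA, which read the same pattern on both strands, stood in 8 of the 25, or 32%, against 9.55% of all. Windows from 7 genes are printed below because these genes recur in the results. All are written 5′ to 3′ on the gene's own strand, with the matched letters in capitals.
Ifit3, chr19:34583361-34583428, plus strand: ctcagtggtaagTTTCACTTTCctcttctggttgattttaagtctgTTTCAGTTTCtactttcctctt
Ifit1, chr19:34640773-34640825, plus strand: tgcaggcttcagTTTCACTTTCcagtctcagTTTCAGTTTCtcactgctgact
Oas1a, chr5:120907526-120907557, minus strand: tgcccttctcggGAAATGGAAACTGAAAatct
Stat2, chr10:128270264-128270297, plus strand: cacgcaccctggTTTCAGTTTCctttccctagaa
Cxcl10, chr5:92349081-92349114, minus strand: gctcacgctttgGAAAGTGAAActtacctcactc
Ddx58, chr4:40239809-40239828, minus strand: ggcagTTTCGATTTCctatg
Eif2ak2, chr17:78882540-78882559, minus strand: gccggGAAAACGAAAcagaa
In Ifit3, Ifit1, Oas1a, Stat2 and Cxcl10 the matches lie before the start site, and in Ddx58 and Eif2ak2 they lie after it. Ifit3 and Ifit1 each carry 2 separate copies in the same orientation. In Oas1a 2 copies overlap in a single run. A match is a run of letters in this window and was not tested as a binding site.

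Young GFP-positive cells were first set against young GFP-negative cells, to see where in the hippocampus the interferon genes are used. In bulk samples fewer cells of a type and less RNA per cell cannot be told apart, and here microglia and endothelial markers were high in the GFP-negative fraction alone. Of 32 genes, 6 were lower in GFP-positive cells and 0 were higher by limma at an adjusted p under 0.05: the effectors Ifit2, Sp100, Xaf1 and Ifi35, the RIG-I partner Trim25, and Cxcl10. The 6 are 18.8% of the set. Over all genes 17% passed this test in either direction and 9.3% passed it as lower. Counted without a test, 25 of 32 differences were negative and 7 positive, with a median of -0.34, whereas 62.2% of all genes had a positive difference and their median was 0.10. The median was -0.33 for the 13 bright genes, of which 2 were called, and -0.34 for the 19 dim genes, of which 4 were called. For all bright genes the median was 0.0038 and for all dim genes 0.14. Called were 15.4% of the bright interferon genes, against 24.1% of all bright genes, and 21.1% of the dim ones, against 9.85% of all dim genes. Leaving out replicate 1 of both young groups, the samples highest in choroid plexus markers, reduced the median of the interferon genes to -0.10. With them left out, 13 differences were positive and 5 genes were called. Ifit2, Sp100, Xaf1 and Trim25 were called lower, and the sensor Eif2ak2 was called higher (0.95, adjusted p = 0.0309 by limma).

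**Figure D1:**
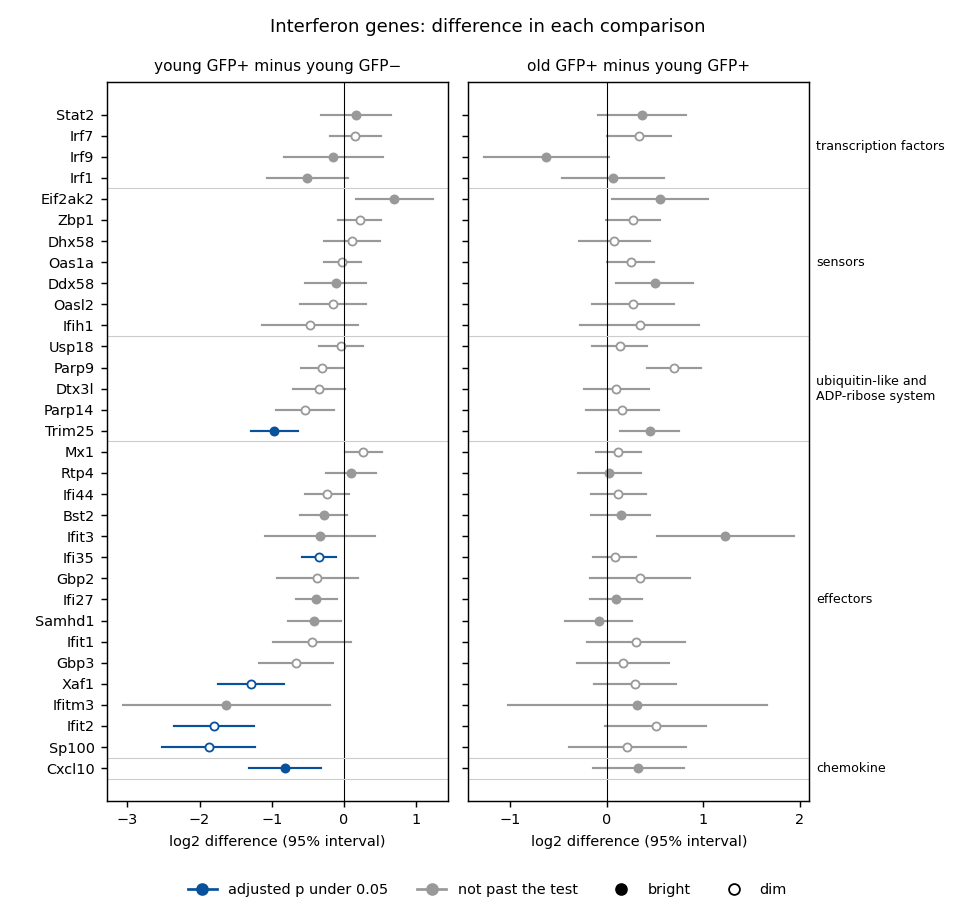
Log2 differences of the 32 interferon genes with 95% intervals from limma, for young GFP-positive minus young GFP-negative samples and for old GFP-positive minus young GFP-positive samples, ordered by role. In the sort comparison 6 genes pass the test, all on the negative side, whereas in the age comparison 30 of 32 differences are positive and 0 pass.

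The effectors, 15 genes, carried most of the calls, with 4 called, or 26.7%, where 17% of all genes were. Ifit2, which binds viral RNA and blocks its translation, had values of 6.02, 6.34, 5.66 and 5.65 in old GFP-positive samples, 5.12, 5.25 and 5.88 in young GFP-positive samples, and 6.84, 7.58 and 7.23 in young GFP-negative samples. Every GFP-negative value lay above every GFP-positive one of either age. The gene was 3.49-fold lower in young GFP-positive cells (log2 difference -1.80 ± 0.25 SE, adjusted p = 0.000450 by limma). Sp100, a protein of nuclear bodies that restrict incoming viral DNA, had 5.78, 5.95, 5.73 and 5.46 in old GFP-positive samples, 5.26, 5.45 and 5.84 in young GFP-positive samples, and 8.08, 7.42 and 6.67 in young GFP-negative samples. It was 3.67-fold lower in young GFP-positive cells (-1.88 ± 0.29 SE, adjusted p = 0.000949 by limma), and its probe set may also read the multicopy relatives of Sp100 in the mouse genome.

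Xaf1, an interferon-raised promoter of cell death, had 6.49, 6.54, 5.98 and 5.87 in old GFP-positive samples, 6.12, 5.73 and 5.94 in young GFP-positive samples, and 7.34, 7.40 and 6.93 in young GFP-negative samples. The GFP-negative samples were again apart from both GFP-positive groups, and the difference between the young groups was 2.45-fold (-1.29 ± 0.21 SE, adjusted p = 0.00112 by limma). Ifi35, which binds other interferon-induced proteins, had 6.25, 6.36, 6.24 and 6.18 in old GFP-positive samples, 6.07, 6.19 and 6.27 in young GFP-positive samples, and 6.60, 6.54 and 6.42 in young GFP-negative samples. Its groups did not overlap, but the difference was small, 1.27-fold (-0.35 ± 0.11 SE, adjusted p = 0.0496 by limma). The call of Ifi35 held in 4 of the 18 alternative settings that could test it. It was lost without any 1 old sample, old replicate 3 included (adjusted p = 0.0542 by limma). Without replicate 1 of both young groups the adjusted p was highest, at 0.361 by limma.

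Ifitm3, a membrane protein that blocks fusion of enveloped viruses, varied most from sample to sample. Its values were 7.90, 7.53, 6.29 and 7.20 in old GFP-positive samples, 5.42, 8.21 and 7.09 in young GFP-positive samples, and 9.52, 8.30 and 7.79 in young GFP-negative samples. Young GFP-positive replicate 2 stood above the lowest GFP-negative sample, so the groups overlapped, and the difference of -1.63 ± 0.65 SE did not pass (adjusted p = 0.118 by limma). Without young GFP-positive replicate 2 it was -2.28 and passed (adjusted p = 0.0326 by limma), and without young GFP-positive replicate 1 it was -0.89 (adjusted p = 0.341 by limma). Gbp3, a guanylate-binding GTPase of cell-autonomous defence, had 5.82, 5.68, 5.62 and 5.90 in old GFP-positive samples, 5.20, 5.93 and 5.63 in young GFP-positive samples, and 6.76, 6.19 and 5.82 in young GFP-negative samples. Its difference of -0.67 ± 0.23 SE did not pass (adjusted p = 0.0755 by limma), but it passed without young GFP-positive replicate 2 (-0.84, adjusted p = 0.0478 by limma) or without young GFP-negative replicate 3 (-0.88, adjusted p = 0.0214 by limma). The difference of Gbp3 was -0.41 without young GFP-negative replicate 1 (adjusted p = 0.265 by limma). Without replicate 1 of both young groups it was -0.22 (adjusted p = 0.558 by limma).

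**Figure D2:**
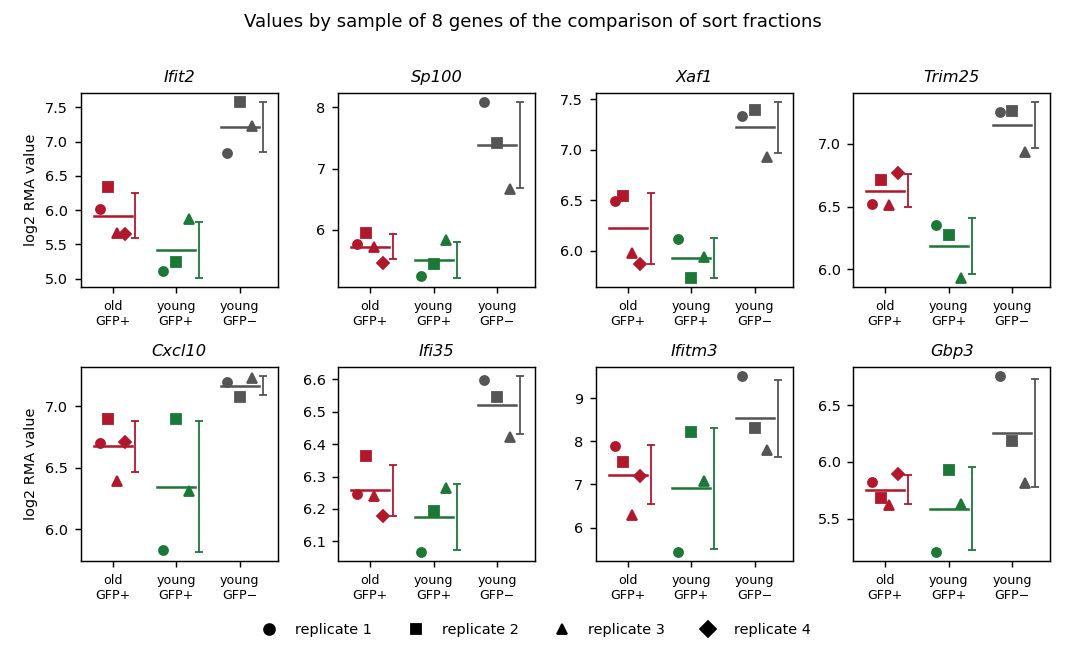
Log2 RMA values of 8 interferon genes in each sample, with the group mean as a line and the SD as a bar (n = 4 old GFP-positive, 3 young GFP-positive, 3 young GFP-negative). For Ifit2, Sp100, Xaf1, Trim25 and Ifi35 all GFP-negative values lie above all GFP-positive values, while Ifitm3 and Gbp3 overlap between the young groups.

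Ifi27, a small interferon-induced membrane protein and the brightest gene of the set, had 8.88, 9.06, 9.28 and 9.02 in old GFP-positive samples, 9.09, 8.98 and 8.82 in young GFP-positive samples, and 9.46, 9.29 and 9.30 in young GFP-negative samples. All 3 GFP-negative values were the higher ones, yet the difference of -0.38 ± 0.13 SE did not pass (adjusted p = 0.0651 by limma); it passed without old replicate 3 (adjusted p = 0.0434 by limma). Bst2 (tetherin), which holds budding virions at the cell surface, had 7.06, 7.37, 7.32 and 7.14 in old GFP-positive samples, 6.88, 7.18 and 7.18 in young GFP-positive samples, and 7.60, 7.33 and 7.14 in young GFP-negative samples. The Bst2 groups overlapped, with a difference of -0.28 ± 0.15 SE (adjusted p = 0.229 by limma).

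Ifit1, which recognises foreign RNA caps, had 5.82, 6.07, 6.07 and 6.04 in old GFP-positive samples, 5.43, 5.86 and 5.79 in young GFP-positive samples, and 6.84, 5.77 and 5.82 in young GFP-negative samples. The GFP-negative mean rested on replicate 1, and the difference of -0.45 ± 0.25 SE (adjusted p = 0.244 by limma) became 0.031 without replicate 1 of both young groups. Samhd1, which breaks down the nucleotides that viruses need, differed by -0.41 ± 0.17 SE with groups that did not overlap (adjusted p = 0.128 by limma). The remaining effectors, Ifi44, Gbp2, Mx1, Rtp4 and Ifit3, differed by -0.37 to 0.27, and none of them passed.

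Among the 5 genes of protein modification, Trim25, a ubiquitin ligase that activates RIG-I, was the 1 call. It had 6.52, 6.72, 6.51 and 6.76 in old GFP-positive samples, 6.35, 6.27 and 5.93 in young GFP-positive samples, and 7.25, 7.27 and 6.94 in young GFP-negative samples. The 3 groups were fully separate, and Trim25 was 1.96-fold lower in young GFP-positive than in GFP-negative cells (-0.97 ± 0.15 SE, adjusted p = 0.000791 by limma). Parp14, an ADP-ribosyltransferase, and Parp9, which works with the ubiquitin ligase Dtx3l, were both below all GFP-negative samples in young GFP-positive cells but did not pass (-0.54 with adjusted p = 0.0688, and -0.31 with adjusted p = 0.148, by limma). Dtx3l and Usp18, which removes ISG15 from proteins, differed by -0.34 and -0.05.

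Cxcl10, which draws activated T cells into tissue, had 6.70, 6.89, 6.39 and 6.71 in old GFP-positive samples, 5.83, 6.90 and 6.31 in young GFP-positive samples, and 7.20, 7.08 and 7.23 in young GFP-negative samples. The GFP-negative samples were the highest of all 10. Cxcl10 was 1.77-fold lower in young GFP-positive than in young GFP-negative cells (-0.82 ± 0.23 SE, adjusted p = 0.0288 by limma). The call held in 11 of 19 alternative settings and was lost when any 1 young GFP-negative sample, or young GFP-positive replicate 1 or 3, was left out. Without young GFP-positive replicate 1, which had the lowest value, the difference was -0.56 (adjusted p = 0.0959 by limma), and without replicate 1 of both young groups -0.55 (adjusted p = 0.205 by limma).

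The 7 sensors gave 0 calls in the sort comparison by limma, with 1 at an unadjusted p under 0.05, and a median difference of -0.02. Over all genes 17% were called and 30.4% reached that unadjusted level. That 1 sensor was Eif2ak2 (PKR), the kinase that halts translation when it meets double-stranded RNA, and it ran opposite to the effectors. Its values were 7.59, 7.64, 7.39 and 7.99 in old GFP-positive samples, 7.16, 7.04 and 7.11 in young GFP-positive samples, and 6.97, 5.85 and 6.39 in young GFP-negative samples. Every young GFP-positive sample exceeded every GFP-negative one, with a difference of 0.70 ± 0.24 SE that did not pass (adjusted p = 0.0731 by limma). Without young GFP-negative replicate 1 it was 0.98 and passed (adjusted p = 0.00872 by limma), and without replicate 2 it was 0.42 (adjusted p = 0.246 by limma). Zbp1, a sensor of Z-form nucleic acid, also lay above the GFP-negative samples without passing (0.22 ± 0.14 SE, adjusted p = 0.299 by limma). The other probe set of Zbp1 differed by only 0.06. Ddx58, Ifih1, Dhx58, Oas1a and Oasl2 differed by -0.47 to 0.11 and overlapped between the young groups.

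The 4 transcription factors likewise gave 0 calls by limma and 0 at an unadjusted p under 0.05 in the sort comparison. Stat2 differed by 0.17 ± 0.22 SE, Irf7 by 0.16 ± 0.16 SE, Irf9 by -0.15 ± 0.31 SE and Irf1 by -0.51 ± 0.26 SE. The adjusted p of the 4 factors was 0.206 or higher by limma.

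Counted by overlap alone, 13 of 32 genes had young groups that did not overlap, close to the 38.9% of all genes that did so, and 11 of them were lower in GFP-positive cells, where 15% of all genes were. In the same direction, the microglia markers averaged 6.02 to 6.66 in young GFP-positive samples, against 9.36 to 9.88 in young GFP-negative samples, and the endothelial markers 5.62 to 6.19 against 7.17 to 8.90. GFP-negative replicate 1 had the highest mean of both marker lists and was the highest of its group for 20 of 32 interferon genes. The share over all genes was not counted, and this array had the largest SD of the 10 (1.86). GFP-negative replicate 1 was also the highest of its group for markers of mature oligodendrocytes (11.16), neurons (8.64) and choroid plexus (8.17). For the astrocyte, stem and progenitor, leukocyte and erythroid lists another GFP-negative sample was the highest. Of 4 erythroid markers, 2 were called lower in GFP-positive samples by limma. The part of any of these cell types in the interferon differences was not tested.

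Other genes of the pathway were read from lists of whole families and pathway steps. The 10 interferon ligands gave 0 calls by limma between the young fractions, with 1 at an unadjusted p under 0.05, Ifna2 (0.29 ± 0.11 SE, adjusted p = 0.108). Of 11 receptors, kinases and STATs, 3 were lower in GFP-positive cells and 0 higher, or 27.3% called where 17% of all genes were, and the median difference was -0.50. They were the interferon gamma receptor chains Ifngr1 (-1.67, adjusted p = 0.0276 by limma) and Ifngr2 (-0.65, adjusted p = 0.00737 by limma), and Il10rb (-1.21, adjusted p = 0.00113 by limma), a receptor chain shared by interferon lambda and interleukin 10. Ifngr1 lost its call when any young GFP-positive sample, or young GFP-negative replicate 1 or 2, was left out, with an adjusted p up to 0.100 by limma. Without replicate 1 of both young groups neither Ifngr1 (-1.58, adjusted p = 0.173 by limma) nor Ifngr2 (-0.59, adjusted p = 0.0908 by limma) passed.

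Of 12 negative regulators, 4 were lower and 0 higher, or 33.3% called. Over all genes 17% were called and 9.3% were called lower. Tnfaip3 (A20), which edits ubiquitin chains to end inflammatory signals, differed by -3.11 (adjusted p = 1.19e-06 by limma), the phosphatase Ptpn6 by -0.74 (adjusted p = 0.00290 by limma) and Socs3 by -0.94 (adjusted p = 0.00952 by limma). Among 14 adaptors and kinases that carry the sensor signal, 5 were lower and 3 higher, or 57.1% called, against the same 17%. The median difference of this list was 0.03, and the 3 genes with the smallest p were all lower ones. Sting1, the adaptor of the DNA sensing arm, differed by -1.65 (adjusted p = 2.18e-05 by limma), and the transcription factors Irf5 and Irf8, which are prominent in myeloid cells, by -0.71 (adjusted p = 0.00259 by limma) and -1.12 (adjusted p = 0.00409 by limma). Of 55 further interferon-stimulated genes, 10 were lower and 1 higher, or 20% called where 17% of all genes were, with a median of -0.04. Ly6e, a lipid-anchored surface protein, differed by -2.49 (adjusted p = 4.40e-05 by limma) and the galectin Lgals9 by -1.55 (adjusted p = 0.000135 by limma). The gene that was higher was Herc6, the ligase that attaches ISG15 in the mouse, at 1.42 (adjusted p = 8.40e-05 by limma).

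Old GFP-positive cells were then set against young GFP-positive cells. By limma 0 of 32 interferon genes passed at an adjusted p under 0.05, where 3 of 19965 genes, or 0.015%, did. At an unadjusted p under 0.05 there were 7, all higher in old cells: Parp9, Ifit3, Trim25, Ddx58, Eif2ak2, Oas1a and Irf7. Over all genes 10.2% reached that level, and 4.7% did so as higher. The differences of 30 genes were positive and those of Irf9 and Samhd1 negative, with a median of 0.26, whereas 60.4% of all genes were positive with a median of 0.05. None of these positive differences is a call.

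**Figure D3:**
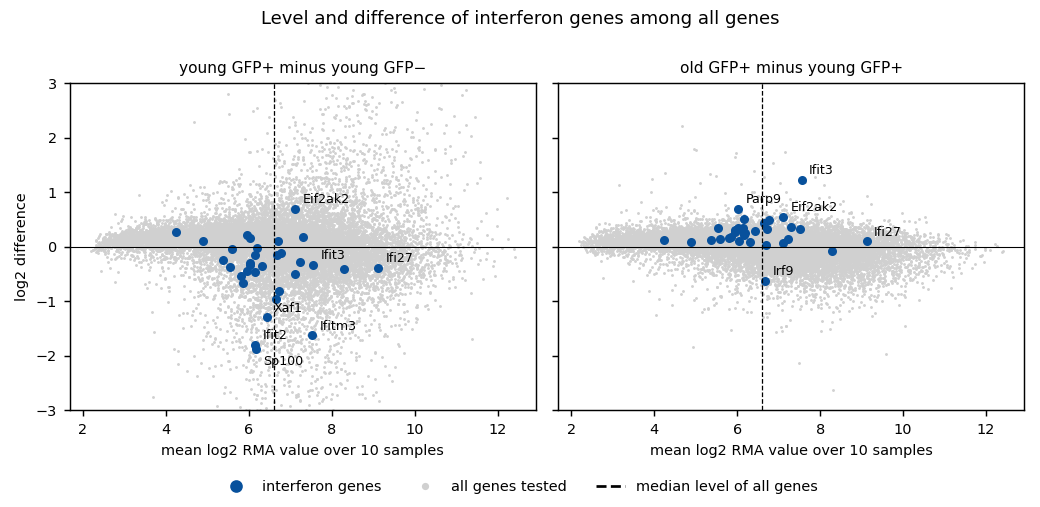
Log2 difference of each gene against its mean log2 RMA value over all 10 samples, in the sort comparison and in the age comparison, with the interferon genes coloured over all genes in grey and a line at the median level of 6.60. Grey genes beyond 3 log2 units are not drawn. In the age comparison the interferon genes lie mostly above 0 on both sides of the line, with Ifit3 highest at 1.23 and Irf9 lowest at -0.62 (-0.32 without old replicate 1).

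Because dim genes as a whole leaned upward with age, the bright and dim interferon genes were read apart. Of the 13 bright genes 11 had positive differences, with a median of 0.32, where 43.7% of all bright genes were positive and the median was -0.03. All 19 dim genes had positive differences, with a median of 0.25, where 77.0% of all dim genes were positive and the median was 0.10. The mean of the 32 genes was 6.38 to 6.57 in old GFP-positive samples, against 6.07 to 6.34 in young GFP-positive samples, and the ranges did not overlap. Leaving out young GFP-positive replicate 1 lowered the median to 0.14 with 26 positive differences. That sample was the lowest of its group for 16 of 32 genes, and the share over all genes was not counted. Leaving out any other sample kept the median between 0.19 and 0.30, and without old replicate 3, whose Xist was high, 28 differences were positive.

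Parp9, a modifier, and Ifit3, an effector, had the largest positive age differences. The values of Parp9 were 6.34, 6.64, 6.23 and 6.21 in old GFP-positive samples, 5.72, 5.67 and 5.60 in young GFP-positive samples, and 5.93, 5.86 and 6.12 in young GFP-negative samples. The old samples were the highest of the 10, and the difference of 0.70 ± 0.12 SE, 1.62-fold, had the smallest p of the set but did not pass (adjusted p = 0.112 by limma, 0.0576 to 0.344 over the alternatives). Trim25, whose values are given above, was higher in all 4 old than in all 3 young GFP-positive samples (0.44 ± 0.14 SE, adjusted p = 0.336 by limma), and both groups stayed below the GFP-negative samples. The other modifiers, Parp14, Usp18 and Dtx3l, differed by 0.10 to 0.16.

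Ifit3, a partner of Ifit1 in binding viral RNA, showed the largest difference of the set. Its values were 8.43, 8.90, 7.73 and 7.70 in old GFP-positive samples, 7.36, 7.30 and 6.22 in young GFP-positive samples, and 7.25, 7.39 and 7.24 in young GFP-negative samples. All 4 old samples exceeded every young one of either fraction, by 1.23 ± 0.32 SE over young GFP-positive cells, or 2.34-fold, and this did not pass (adjusted p = 0.263 by limma, 0.132 to 0.453 over the alternatives). The near-identical gene Ifit3b, named after its values were seen, differed by 1.34 ± 0.34 SE (adjusted p = 0.252 by limma), and the array may not tell the 2 genes apart. Ifit2 differed by 0.51 ± 0.24 SE (adjusted p = 0.498 by limma) and Ifit1 by 0.31 ± 0.23 SE (adjusted p = 0.641 by limma). For Ifit2 and Ifit1 the old and young GFP-positive values overlapped.

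**Figure D4:**
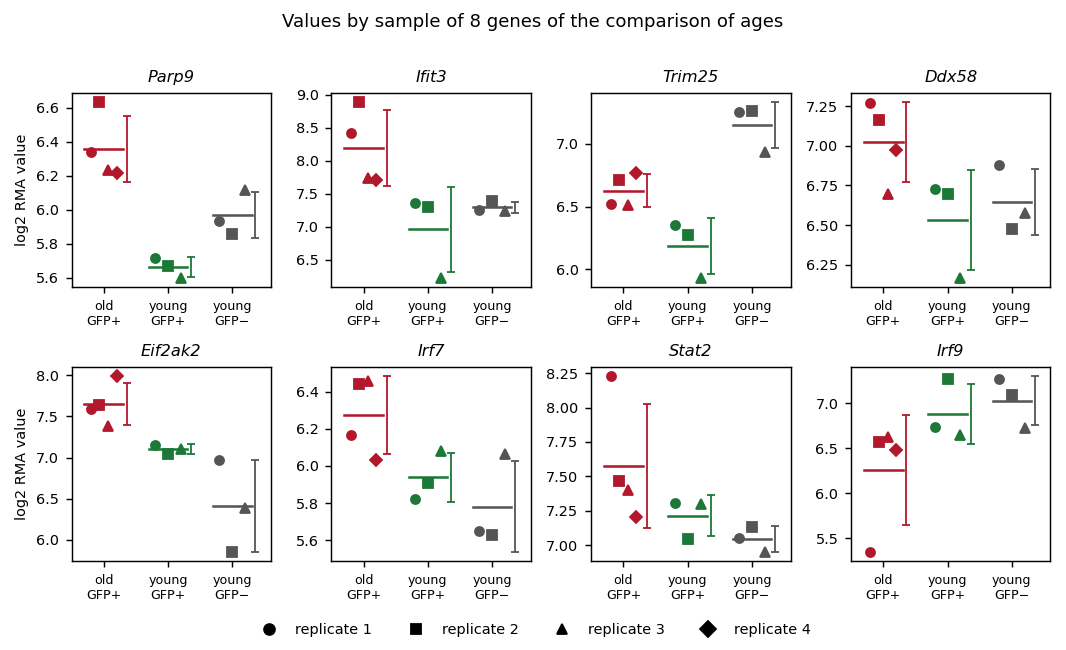
Log2 RMA values of 8 interferon genes in each sample, with the group mean as a line and the SD as a bar (n = 4 old GFP-positive, 3 young GFP-positive, 3 young GFP-negative). For Parp9, Ifit3 and Eif2ak2 all 4 old samples lie above all young samples, while Irf9 has its lowest value, 5.35, in old replicate 1.

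Cxcl10 and the remaining effectors had smaller differences. The difference of Cxcl10 was 0.33 ± 0.21 SE between old and young GFP-positive cells (adjusted p = 0.597 by limma), that of Bst2 0.15 ± 0.14 SE (adjusted p = 0.702 by limma) and that of Gbp3 0.17 ± 0.22 SE (adjusted p = 0.770 by limma). The difference of Ifitm3 was 0.32 ± 0.61 SE (adjusted p = 0.851 by limma). Without young GFP-positive replicate 1 it was 0.07 for Cxcl10, 0.05 for Bst2, -0.42 for Ifitm3 and -0.02 for Gbp3, and the sign of Ifitm3 and Gbp3 turned. Ifi27 differed by 0.10 ± 0.12 SE in the probe set used (adjusted p = 0.765 by limma) and by -0.07 to 0.002 in its other 4 probe sets. Sp100, Xaf1, Gbp2, Ifi35, Ifi44, Mx1, Rtp4 and Samhd1 differed by -0.08 to 0.35, and the old and young GFP-positive values of each overlapped.

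Among the sensors all 7 differences were positive, with a median of 0.27. Eif2ak2 was highest in the 4 old samples and lowest in the GFP-negative samples, and differed by 0.55 ± 0.23 SE with age (adjusted p = 0.452 by limma). Ddx58 (RIG-I) had 7.27, 7.17, 6.70 and 6.97 in old GFP-positive samples, 6.73, 6.70 and 6.17 in young GFP-positive samples, and 6.88, 6.48 and 6.58 in young GFP-negative samples. The old and young GFP-positive values of Ddx58 overlapped only through old replicate 3, and the difference was 0.50 ± 0.18 SE (adjusted p = 0.414 by limma). Zbp1 did not overlap between the ages in the probe set used (0.27 ± 0.13 SE, adjusted p = 0.497 by limma), and its other probe set differed by 0.21. Oas1a, an oligoadenylate synthetase that starts RNA decay, had 0.25 ± 0.11 SE (adjusted p = 0.479 by limma), and it has a near copy, Oas1g. Ifih1, Oasl2 and Dhx58 differed by 0.34, 0.27 and 0.08, and Ifih1 by 0.06 without young GFP-positive replicate 1.

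The transcription factors had differences of both signs. Irf7, which amplifies interferon production, had 6.17, 6.44, 6.46 and 6.03 in old GFP-positive samples, 5.82, 5.91 and 6.08 in young GFP-positive samples, and 5.65, 5.63 and 6.06 in young GFP-negative samples. The ages overlapped by 1 sample each, with a difference of 0.34 ± 0.15 SE (adjusted p = 0.483 by limma). Stat2 had 8.23, 7.47, 7.40 and 7.20 in old GFP-positive samples, 7.31, 7.04 and 7.30 in young GFP-positive samples, and 7.05, 7.13 and 6.95 in young GFP-negative samples. Old replicate 1 was the highest, and the difference of Stat2 was 0.36 ± 0.21 SE (adjusted p = 0.556 by limma), or 0.14 without that sample (adjusted p = 0.722 by limma). Irf9, the DNA-binding partner of Stat2, had 5.35, 6.58, 6.62 and 6.49 in old GFP-positive samples, 6.74, 7.26 and 6.65 in young GFP-positive samples, and 7.27, 7.09 and 6.73 in young GFP-negative samples. All 4 old samples were below every young one, with a difference of -0.62 ± 0.29 SE that did not pass (adjusted p = 0.498 by limma). Without old replicate 1 the difference of Irf9 was -0.32 (adjusted p = 0.622 by limma). The other 2 probe sets of Irf9 gave -0.45 and -0.57. Irf1 differed by 0.07 ± 0.24 SE.

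Counted by overlap, 6 of 32 genes were separate between old and young GFP-positive samples, where 10.9% of all genes were. Ifit3, Trim25, Parp9, Eif2ak2 and Zbp1 were higher in old cells, 5 of 32 against 6.85% of all genes, and Irf9 was lower. The group means of 17 of 32 genes ran from GFP-negative as the highest through old GFP-positive to young GFP-positive as the lowest, or 53.1%, an order that 12.1% of all genes had. In 7 genes, or 21.9%, the order was old GFP-positive, young GFP-positive, GFP-negative, against 41.6% of all genes. Both comparisons share the young GFP-positive samples, so a low value there sets the sign of both.

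With age, limma called 0 genes of any marker list. The microglia markers averaged 6.07 to 6.30 in old GFP-positive samples, against 6.02 to 6.66 in young GFP-positive samples, and the endothelial markers 5.70 to 6.05 against 5.62 to 6.19. Of 9 markers of T cells and blood leukocytes, all had positive age differences, with means of 5.51 to 5.74 in old and 5.40 to 5.56 in young GFP-positive samples. Those means lay below the line between bright and dim genes. With age 60.4% of all genes and 77.0% of all dim genes were positive. The median was 0.15 for this list and 0.10 for all dim genes. For 4 of the 9 leukocyte markers every old value lay above every young GFP-positive one, where 6.85% of all genes did so. All 7 markers of mature oligodendrocytes had negative age differences, 3 of them at an unadjusted p under 0.05, and their means of 7.92 to 8.01 in old and 8.05 to 8.75 in young GFP-positive samples did not overlap. Of 7 neuron markers 6 had negative age differences, with means of 6.74 to 7.60 in old and 7.01 to 7.80 in young GFP-positive samples. The choroid plexus markers, high in young GFP-positive replicate 1, averaged 5.64 to 5.94 in the old samples. The part of these cells in the age differences of the interferon genes was not tested.

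**Figure D5:**
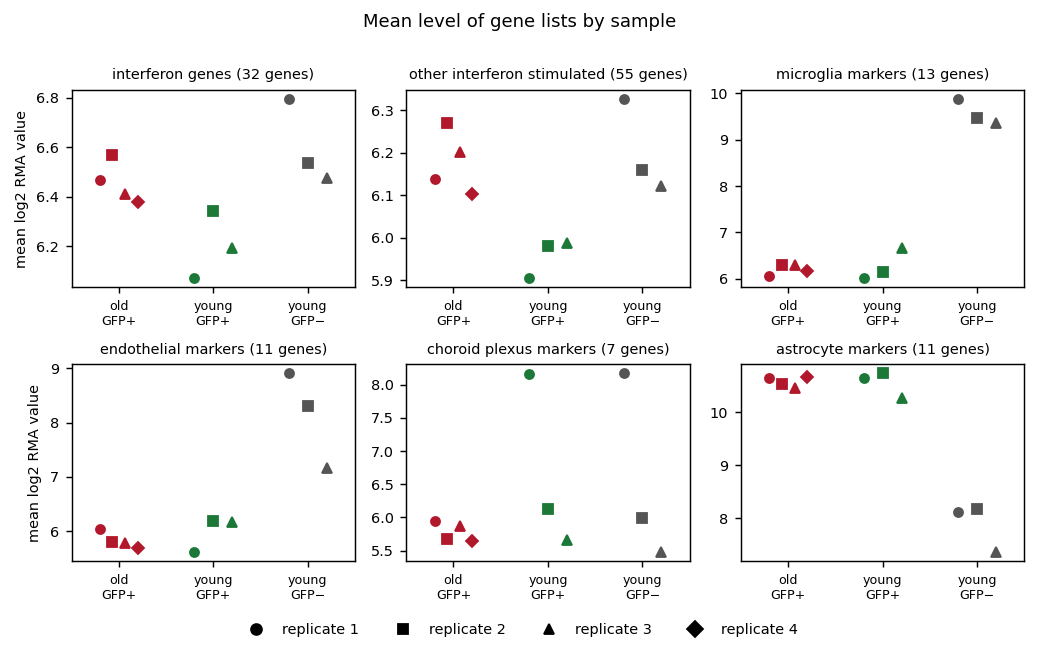
Mean log2 RMA value of 6 gene lists in each sample (points, with the replicate number as the shape), for old GFP-positive, young GFP-positive and young GFP-negative samples. Each panel has its own scale. The 32 interferon genes lie between 6.07 and 6.34 in young GFP-positive samples and between 6.38 and 6.57 in old ones, microglia markers do not separate the ages, and choroid plexus markers are at 8.17 in replicate 1 of both young groups.

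The promoters were then set beside the age values. The 12 measured genes with an ISRE in the window all had positive differences, with a median of 0.33, and of the 12 without it 10 did, with a median of 0.17. Over all genes tested, 67.5% of 613 genes with the letters were positive (median 0.08), and 59.2% of 14923 genes without them (median 0.05). In the sort comparison the interferon genes had medians of -0.35 with and -0.38 without the letters. These are descriptions of lists that were not tested. The 2 copies in the Ifit3 promoter printed above stand in the gene with the largest age difference, whereas Ifit1, also with 2 copies, differed by 0.31.

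The rest of the pathway gave 0 calls with age by limma in each list. The 55 further interferon-stimulated genes leaned the same way as the set, with 47 positive differences, a median of 0.18 and 8 genes, or 14.5%, at an unadjusted p under 0.05, all higher, where 10.2% of all genes reached that level. Of the 20 bright ones 80% were positive (median 0.13), against 43.7% of all bright genes, and of the 35 dim ones 88.6% (median 0.23), against 77.0% of all dim genes. Their mean was 6.10 to 6.27 in old and 5.91 to 5.99 in young GFP-positive samples. Gbp7, another guanylate-binding GTPase, had the smallest p among them (0.63 ± 0.15 SE, adjusted p = 0.247 by limma). Herc6, the 1 gene of this list called higher between the young fractions, had 7.94, 8.36, 7.91 and 8.29 in old GFP-positive samples, against 7.68, 7.70 and 7.48 in young GFP-positive samples. The groups of Herc6 did not overlap, and the difference was 0.50 ± 0.15 SE (adjusted p = 0.304 by limma).

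The upstream lists differed in sign. Of 10 ligands 8 had positive age differences (median 0.11), with 0 at an unadjusted p under 0.05, and Ifng had the smallest p (0.27 ± 0.13 SE, adjusted p = 0.509 by limma). Of 11 receptors, kinases and STATs 5 were positive (median -0.05), and Ifnar2, a chain of the type I receptor, had the smallest p at -0.71 ± 0.27 SE (adjusted p = 0.433 by limma). Of 12 negative regulators 5 were positive (median -0.01), with Socs1 first at 0.20 ± 0.13 SE (adjusted p = 0.599 by limma). Of 14 adaptors and kinases 5 were positive (median -0.05), with the kinase Tbk1 first at 0.18 ± 0.14 SE (adjusted p = 0.650 by limma). At an unadjusted p under 0.05 there were 2 receptor and STAT genes, both lower in old cells, and 0 regulators or adaptors.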

How the data were processed

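The deposited table holds log2 values of RMA (background correction, quantile normalization and summary of the probes), which the authors ran per the submitters' processing notes, with probes regrouped by RefSeq transcript of the mm9 build, per the series' design text. The RMA version is not stated in those sources. RMA puts the probe values of all arrays on 1 distribution, which removes differences in total RNA and understates changes of dim genes. After the summary of the probes the array medians still ran from 6.54 (old replicate 1) to 6.66 (old replicate 3). The SDs ran from 1.62 (old replicate 3) to 1.86 (young GFP-negative replicate 1). Precision is limited by the 10 arrays. The submitters removed 1 array of a young mouse as skewed, and give the young mice as 5 to 7 months although some titles say 4 months.

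Of 31672 probe sets, 24590 matched 1 symbol in a RefSeq table of GRCm38.p6, 0 several and 7082 none. The brightest probe set stood for each of 3010 genes with several, which left 19965 genes. Of the interferon genes 26 had 1 probe set and 6 several. Groups came from the titles. limma 3.58.1 in R 4.3.3 fitted 3 group means to all 10 samples (degrees of freedom 7 residual plus 4.07 prior), with two-sided tests, Benjamini-Hochberg adjustment over all genes and an adjusted p of 0.05 as the threshold. The submitters' text names SAM, which was not run here.

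The fit was tested on simulated data before use. Same-numbered samples deviated together with r of 0.124, 0.0211 and 0.191 across genes in the sort comparison and -0.0184, -0.0674 and 0.216 in the age comparison, so numbers were not treated as pairs. A low r does not show that same-numbered young fractions came from different dissections, and the level of Ttr followed the number in both. A shared dissection was not tested.

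The genes, lists and tests were chosen with earlier results of these data known. Named with all values were genes past the test, the 5 smallest p of each comparison and a fixed list (Ifitm3, Bst2, Ifit1, Ifit3, Irf7, Stat2, Ifi27, Gbp3, Cxcl10 and Isg15); of each pathway list, up to 3 past the test, or the 1 with the smallest p. Not found were 5 of 60 further interferon-stimulated genes, and of the marker lists Ly6c2 and Hba-a1. Promoter sequences are RefSeq's. Plots used matplotlib 3.10.9 (Python 3.11.15).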

Additional observations from a re-analysis of the deposited data

Results flagged for a closer look

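Outliers were looked for in the old GFP-positive samples only, because the rule was applied to groups of 4 or more and the young groups hold 3. The gap to the nearest sample over the range of the group was set against Dixon's critical value at 95%. Chance passes that value in about 1 of 20 groups, and 32 groups were tested. In 3 of the 32 interferon genes 1 old sample stood apart from the other 3 by this rule. Irf9 was low in old replicate 1 (gap over range 0.891), at 5.35 where the other old samples lay between 6.49 and 6.62. Ifit1 was low in old replicate 1 (0.856), at 5.82 against 6.04 to 6.07. Mx1 was low in old replicate 4 (0.918), at 4.29 against 4.43 to 4.44.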

How the results depend on the processing

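Ifit2, Sp100, Xaf1 and Trim25 were called lower in young GFP-positive cells in every alternative that tested them, and the age comparison called 0 interferon genes in every one. The count of calls between the young fractions was 2 without the dimmest 50% of genes, where 13 interferon genes were left, and 11 with array weights, and ranged from 4 to 7 when 1 sample was left out. Of these calls, Eif2ak2 was higher in GFP-positive cells with array weights and without young GFP-negative replicate 1, and Mx1 with array weights. Of the genes of the other pathway lists (10, 11, 12, 14 and 55 genes) 26 were called, where 17% of all genes were. Their count was 17 without the dimmest 50% of genes, 40 with array weights and 17 without replicate 1 of both young groups. The last setting also gave a median of -0.10 for the interferon genes. Calls over all genes moved with the setting too, so these shifts are not particular to the pathway genes. With age, 11 of the 13 interferon genes left without the dimmest 50% of genes were positive. Over all genes the calls ranged from 1841 to 5736 in the sort comparison and from 0 to 20 in the age comparison. With the replicate number as a block, 4 interferon genes were called in the sort comparison and 0 in the age comparison, over all genes 2824 and 0, and Cxcl10, Ifi35, Irf8 (adjusted p = 0.0571 by limma) and Socs3 (adjusted p = 0.0528 by limma) lost their call.

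Of 961 values of named genes under alternatives, 910 kept direction and side of the threshold, 31 lost and 10 gained a call, and 10 changed sign, the cause of which was not tested. Ddx58 was 0.053 in the sort comparison with array weights, Ifit1 0.031 there without replicate 1 of both young groups, and with age under that setting Gbp3 was -0.022 and Ifitm3 -0.42. Ifi27 was -0.0041 with age as the mean of all its probe sets. Leaving out 1 sample at a time gave -0.21 to 0.069 for Ddx58 and -0.53 to 0.037 for Ifit3 in the sort comparison, and -0.022 to 0.34 for Gbp3 and -0.42 to 0.97 for Ifitm3 with age. Arrays give no detection limit here, so dim genes bound neither presence nor absence.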

Other observations

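Old GFP-positive replicate 1 was low in Irf9 and also in 2 interferon receptor chains. Ifnar2 was 6.93 in that sample and 8.03 to 8.12 in the other 3 old samples, and Ifngr1 was 6.10, where the other old samples had 7.90, 7.46 and 8.43. Both were named by the rule on pathway genes, and the low value of this sample was seen after the values were known.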
